A study of Homo sapiens with 2 samples.

Results

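G2/M and mitosis genes are the transcripts that carry a cell from the end of DNA replication through chromosome segregation and division. A list of 39 of them was read from the deposited table by gene symbol, and 35 of the 39 had a row of their own among 62571 rows. The libraries come from HuH6, a human hepatoblastoma cell line, grown untreated in serum-containing medium: PIM3_KO carries a CRISPR/Cas9 knockout of the serine/threonine kinase gene PIM3, and HuH6_WT is the parental line. The labels give 1 library per group and do not say whether the knockout cells are a single clone or a pool. The series title frames the comparison as one of tumour formation and stemness after loss of the kinase. With 1 library per group no difference has a replicate check, so no test between the groups was made, no p-value is given and differences between the lines other than the PIM3 edit cannot be told apart from it. In bulk RNA, a change in the share of dividing cells and a change in mitotic RNA per dividing cell cannot be told apart either.

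In cycling cells, CDK1 bound to cyclin A or cyclin B starts mitosis, Aurora and Polo-like kinases build the spindle, and the spindle checkpoint holds the anaphase-promoting complex inactive until every chromosome is attached. That complex then marks securin and cyclin B for destruction, separase cuts cohesin, and the cell divides. Most of these genes are transcribed late in the cycle. The MuvB core complex, with B-MYB and FOXM1 in proliferating cells and with p130 or p107 in resting cells, acts through a CHR element near the start site, and the factor NF-Y binds CCAAT boxes upstream of it.

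Of the 39 genes, 33 had a single row and a mean of at least 1 FPKM (fragments per kilobase, corrected for the size of the library) over both libraries, and the counts below use these 33. BUB1B, CENPA, NUSAP1 and PRC1 were deposited only as loci joined with other genes, SPC25 had 2 rows, and UBE2C had a single row below 1 FPKM. Values of 1 read in the low genes implied normalisation totals of 22.2 M reads for PIM3_KO and 28.3 M for HuH6_WT, so that 3 reads on a 2000 bp transcript came to 0.0750 and 0.0588 FPKM. PIM3 itself measured 14.0 FPKM in PIM3_KO, against 34.2 FPKM in HuH6_WT. Of 8 liver and hepatoblastoma markers, 7 passed the filter of a mean of at least 1 FPKM, and 3 of the 7 were at least 2-fold higher in PIM3_KO: AFP at 70.1 FPKM in PIM3_KO, against 1.19 FPKM in HuH6_WT, TTR at 2232 against 270 FPKM and ALB at 9.18 against 0.520 FPKM. LIN28A was lower at 196 FPKM in PIM3_KO, against 316 FPKM in HuH6_WT, GPC3 measured 607 and 694 FPKM, HNF4A 32.7 and 36.1 FPKM and FOXA2 172 and 126 FPKM, while DLK1 was listed at 0 in both libraries. The 2 lines thus differed in liver markers, and the part of this difference in the values below was not tested. The summed level of the 3 leukocyte markers with a single row (CD14, CD3E and LYZ) was 10.7 FPKM in PIM3_KO and 5.97 FPKM in HuH6_WT, that of the 4 endothelial markers 1.34 and 1.96 FPKM with CDH5 and KDR listed at 0, and that of the 5 fibroblast markers 10.6 and 10.3 FPKM. Of the other leukocyte markers, PTPRC had 2 rows, at 0 in PIM3_KO and at 0.00773 FPKM or less in HuH6_WT. CD68 was deposited only in a joined locus. The part of other cells in the values below was not tested.

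The promoters of these genes share sequence features that the list did not use. RefSeq promoter windows (GRCh38.p14), which run from 250 bp before to 50 bp after the annotated start, matched 33 of the 39 genes. AURKA, BUB3, TTK, UBE2C, TPX2 and BIRC5 were not among them. A CHR element was searched as TTTGAA or TTCGAA and a CCAAT box as CCAAT, each on either strand, and overlapping matches were counted separately. At least 1 CHR element stood in 26 of the 33 genes (78.8%), against 53.9% of 89 other mitosis genes (the further lists without the regulators) and 19.5% of all 27305 genes with a window. Within 50 bp of the start it stood in 23 of the 33 (69.7%), against 41.6% of the other mitosis genes and 6.24% of all. A CCAAT box stood in 27 of the 33 (81.8%), against 64.0% and 39.7%, and 22 (66.7%) held both, against 34.8% and 9.02%. The features are therefore common among mitosis genes in general, and the differences between these shares were not tested. These matches are letters in a window and do not show binding.

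Below are the windows of the 3 genes that differed most between the libraries (TOP2A, CDCA3 and CENPE, all higher in PIM3_KO), of CCNB2 as an example of several boxes upstream of a CHR element, and of HMMR, the gene with the lowest ratio. Capitals mark CHR elements and CCAAT boxes on either strand. TOP2A lies at chr17:40417847-40418146 on the minus strand, CDCA3 at chr12:6851237-6851536 (minus), CENPE at chr4:103198294-103198593 (minus), CCNB2 at chr15:59104896-59105195 (plus) and HMMR at chr5:163460382-163460681 (plus).
TOP2A: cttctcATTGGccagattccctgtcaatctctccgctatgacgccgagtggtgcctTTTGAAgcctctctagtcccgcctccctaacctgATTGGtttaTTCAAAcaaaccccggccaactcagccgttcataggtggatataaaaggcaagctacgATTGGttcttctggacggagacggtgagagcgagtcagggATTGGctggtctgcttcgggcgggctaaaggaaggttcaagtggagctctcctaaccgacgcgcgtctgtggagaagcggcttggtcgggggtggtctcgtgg
CDCA3: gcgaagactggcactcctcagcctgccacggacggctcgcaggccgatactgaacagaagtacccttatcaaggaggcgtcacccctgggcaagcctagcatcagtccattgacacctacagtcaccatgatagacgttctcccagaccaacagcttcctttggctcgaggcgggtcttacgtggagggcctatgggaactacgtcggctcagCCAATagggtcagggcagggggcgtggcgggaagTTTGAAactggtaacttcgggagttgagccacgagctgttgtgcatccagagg
CENPE: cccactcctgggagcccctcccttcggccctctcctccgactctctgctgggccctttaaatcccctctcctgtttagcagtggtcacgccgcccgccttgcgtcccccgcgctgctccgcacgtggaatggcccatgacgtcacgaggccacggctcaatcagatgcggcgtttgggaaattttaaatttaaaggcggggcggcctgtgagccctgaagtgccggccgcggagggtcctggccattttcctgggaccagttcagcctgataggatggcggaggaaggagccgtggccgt
CCNB2: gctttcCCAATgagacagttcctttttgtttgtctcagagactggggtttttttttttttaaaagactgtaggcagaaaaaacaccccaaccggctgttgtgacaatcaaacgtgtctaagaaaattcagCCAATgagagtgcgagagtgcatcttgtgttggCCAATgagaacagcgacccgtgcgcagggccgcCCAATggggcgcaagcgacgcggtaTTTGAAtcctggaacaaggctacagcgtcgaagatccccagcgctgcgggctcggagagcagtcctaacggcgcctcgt
HMMR: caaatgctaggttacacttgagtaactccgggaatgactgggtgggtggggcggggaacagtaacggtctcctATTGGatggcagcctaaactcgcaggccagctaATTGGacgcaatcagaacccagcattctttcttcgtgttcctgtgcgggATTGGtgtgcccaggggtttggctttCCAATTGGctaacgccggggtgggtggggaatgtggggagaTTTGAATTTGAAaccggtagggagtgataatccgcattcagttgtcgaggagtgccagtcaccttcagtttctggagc

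The CCNB2 window held CCAAT boxes at -244, -120, -87 and -54 bp and a CHR element at -29 bp. TOP2A held boxes at -244, -160, -93 and -53 bp and CHR elements at -194 and -151 bp. CDCA3 held 1 of each and CENPE neither, whereas HMMR held 2 adjoining CHR elements and 5 boxes, of which 2 overlapped. Genes with and without a CHR element overlapped in ratio. Of 21 measured genes with a CHR element, 10 had a positive log2 ratio (log2 of FPKM + 1, PIM3_KO over HuH6_WT; median -0.08, range -0.72 to 1.48). Of 7 measured genes without a match 5 did (median 0.72, range -0.33 to 1.09). For all genes, 51.0% of ratios were positive and the median was 0.01. The counts by motif describe few genes, and no test was made.

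**Figure D1:**
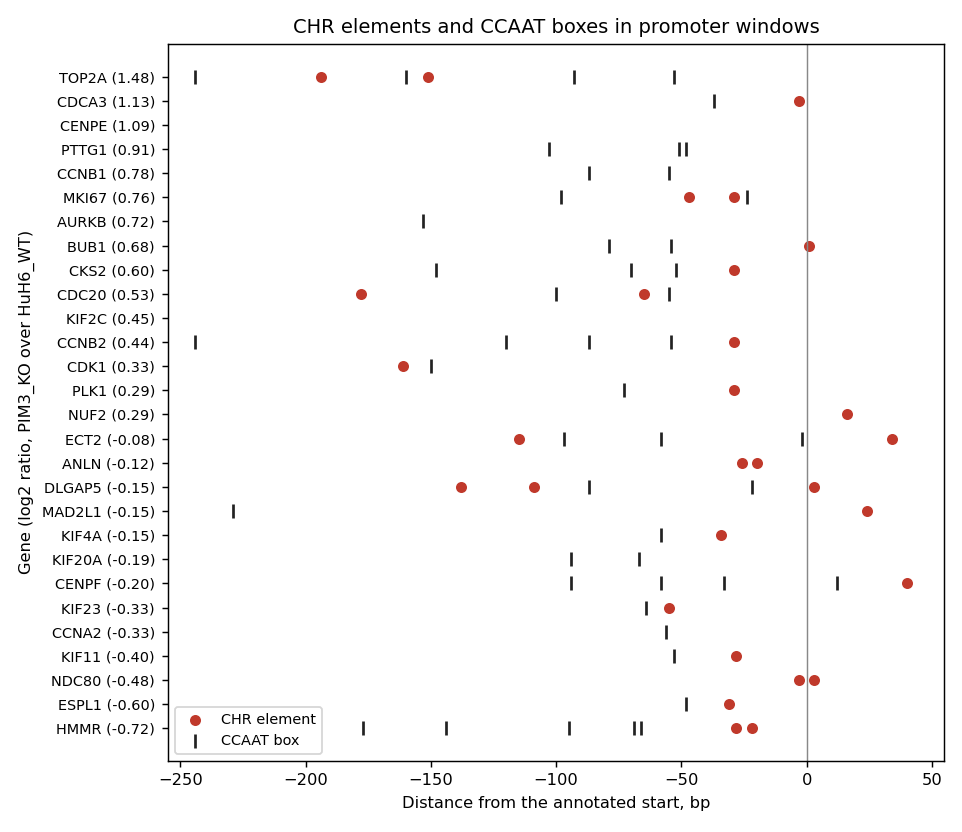
Positions of CHR elements (red circles) and CCAAT boxes (black ticks) relative to the annotated start, in bp, in the promoter windows of the 28 measured genes with a window, ordered by log2 ratio of FPKM + 1 (in brackets; for genes with 2 windows the one with the lower start coordinate is drawn). Both motifs occur from the top of the order (TOP2A, 1.48) to the bottom (HMMR, -0.72).

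As a group, the genes leaned towards higher values in PIM3_KO on FPKM, with a wide spread around a moderate middle. The list was chosen with earlier results of these data known, so its comparison with all genes is a description only. Of the 33, 20 had a positive log2 ratio (60.6%), where 51.0% of all 11253 genes that passed the same filter did. The median ratio was 0.29, against 0.01 for all genes, and the range ran from -0.72 to 1.48. At least 2-fold higher were 3 (9.09%), where the share among all genes was 6.89%, and 0 were at least 2-fold lower, where it was 4.59%. At 1.5-fold, 11 (33.3%) were higher, against 18.2% of all genes, and 2 (6.06%) lower, against 14.9%.

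The choice of scale turned the sign of 8 ratios and left their order close to the same. FPKM summed to 1086210 in PIM3_KO and 787250 in HuH6_WT, and bringing both libraries to the same total (TPM) moved the median log2 ratio of all genes to -0.40. On that scale 12 of the 33 were positive (36.4%), against 26.1% of all genes, and their median was -0.17. At least 2-fold, 1 was higher, where the share of all genes was 2.87%, and 2 were lower, where it was 14.4%. At least 1.5-fold, 3 were higher, against 7.25% of all genes, and 11 lower, against 36.5%. Above the median of all genes stood 20 of the 33 on FPKM and 19 on TPM. On TPM the sign turned negative for CCNB2, CDK1, AURKA, PLK1, NUF2, KIF2C, TPX2 and BIRC5, so "higher" and "lower" below refer to FPKM, whose all-gene median is near 0. Counting error from the estimated reads was small by comparison. On FPKM the 95% interval of the ratio lay above 1 for 19 genes and below 1 for 13, and covered 1 for TPX2. Of the 112 further mitosis genes and regulators given below, it lay above 1 for 50, below 1 for 38 and covered 1 for 24. Of 24 G1/S genes these counts were 8, 13 and 3. The share among all genes was not computed. These intervals use annotated lengths, so they are approximate, and they leave out variation between cultures, which 1 library per group cannot show.

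**Figure D2:**
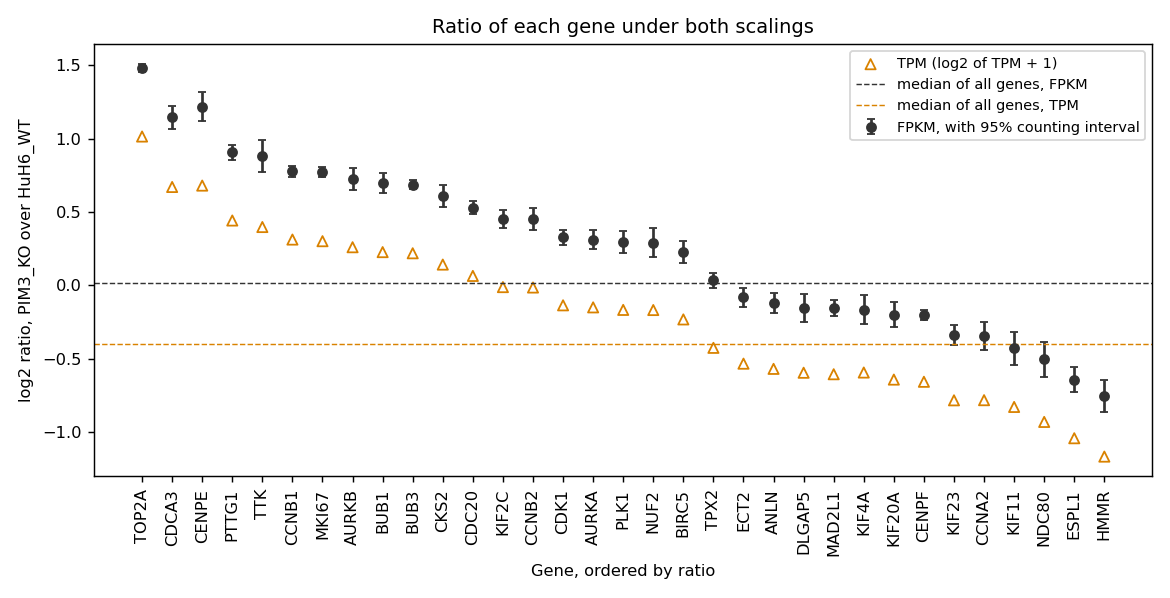
Log2 ratio of PIM3_KO over HuH6_WT for each of the 33 genes, ordered by the ratio of FPKM + 1. Black points are ratios of FPKM with exact 95% counting intervals, orange triangles are ratios of TPM + 1, and dashed lines are the medians of all genes (0.01 and -0.40); the order of the genes is close to the same on both scales, with TOP2A highest.

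Both genes filed under chromosome structure, TOP2A and MKI67, were higher in PIM3_KO, and TOP2A had the highest ratio of the 33. TOP2A, the topoisomerase that untangles sister chromatids and a marker of S to M phase cells, measured 285 FPKM in PIM3_KO, against 102 FPKM in HuH6_WT, a 2.80-fold ratio with a counting interval of 2.75 to 2.85. It was the fourth most abundant of the 33 genes in PIM3_KO and the sixth in HuH6_WT. The gene lies on chromosome 17 (40388516 to 40417950, GRCh38), where its 40 nearest measured coding genes had a median log2 ratio of -0.03. MKI67, the Ki-67 protein that coats mitotic chromosomes and is scored as a proliferation marker, measured 61.0 FPKM in PIM3_KO, against 35.7 FPKM in HuH6_WT. Its ratio of 1.71 was smaller than that of TOP2A. Within each library TOP2A was 4.68 times MKI67 in PIM3_KO and 2.86 times in HuH6_WT, a comparison that no scaling of a library can alter.

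On FPKM, cyclin B and its partners were higher while cyclin A was not. CCNB1, the cyclin whose binding to CDK1 triggers mitotic entry, measured 297 FPKM in PIM3_KO, against 173 FPKM in HuH6_WT, and CCNB2, its Golgi-associated relative, 99.1 against 72.6 FPKM. CDK1, the mitotic kinase itself, measured 172 FPKM in PIM3_KO and 137 FPKM in HuH6_WT, and its small binding subunit CKS2 337 and 221 FPKM. CCNA2, which acts with CDK2 in S phase and with CDK1 in G2, went the other way at 25.3 FPKM in PIM3_KO, against 32.1 FPKM in HuH6_WT. Thus 4 of 5 genes of this role were higher, or 2 of 5 on TPM, where 51.0% and 26.1% of all genes were. After subtraction of a length trend the log2 ratio of CCNB1 was 0.68, of CCNB2 and CDK1 0.16, of CKS2 -0.12 and of CCNA2 -0.32. Less the median of 40 neighbouring genes all 5 were positive, with CCNA2 at 0.01. Per kilobase, CCNB1 exceeded CCNA2 by a factor of 11.7 in PIM3_KO and 5.39 in HuH6_WT. CCNA2 overlaps EXOSC9 on the opposite strand. The kit was directional, but no source used here states how strand was handled in the deposited values. Whether reads of the overlap were kept apart is therefore not known.

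The 3 mitotic kinases outside the checkpoint were all higher on FPKM, and on TPM only AURKB was. Of all genes, 51.0% were positive on FPKM and 26.1% on TPM. AURKB, the catalytic subunit of the chromosomal passenger complex that corrects faulty attachments, measured 139 FPKM in PIM3_KO, against 84.0 FPKM in HuH6_WT. AURKA, which matures centrosomes and the spindle, measured 81.6 and 65.7 FPKM, and PLK1, the Polo-like kinase, 66.1 and 53.9 FPKM. AURKB stood further from the median of all genes than the other two, with a log2 ratio of 0.72 beside 0.31 and 0.29. After subtraction of a length trend the gap was smaller, with AURKB at 0.29, AURKA at 0.23 and PLK1 at 0.21.

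Of 4 measured spindle checkpoint genes 3 were higher on FPKM, where 51.0% of all genes were, and MAD2L1 was lower. TTK, the MPS1 kinase that starts checkpoint signalling, measured 26.8 FPKM in PIM3_KO, against 14.5 FPKM in HuH6_WT, a 1.84-fold ratio with an interval of 1.71 to 1.99. BUB1, the kinase that marks centromeres for shugoshin, measured 51.4 and 31.7 FPKM, and its adaptor BUB3 112 and 69.8 FPKM. MAD2L1, the MAD2 protein that captures CDC20, measured 39.7 FPKM in PIM3_KO and 44.2 FPKM in HuH6_WT. Its log2 ratio of -0.15 became 0.08 after subtraction of a length trend and 0.20 less the median of 40 neighbouring genes. The 3 higher genes also had positive ratios on TPM, where 26.1% of all genes did. The locus joining BUB1B with PAK6 and a read-through gene was near equality, at 26.3 FPKM in PIM3_KO and 26.1 FPKM in HuH6_WT.

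**Figure D3:**
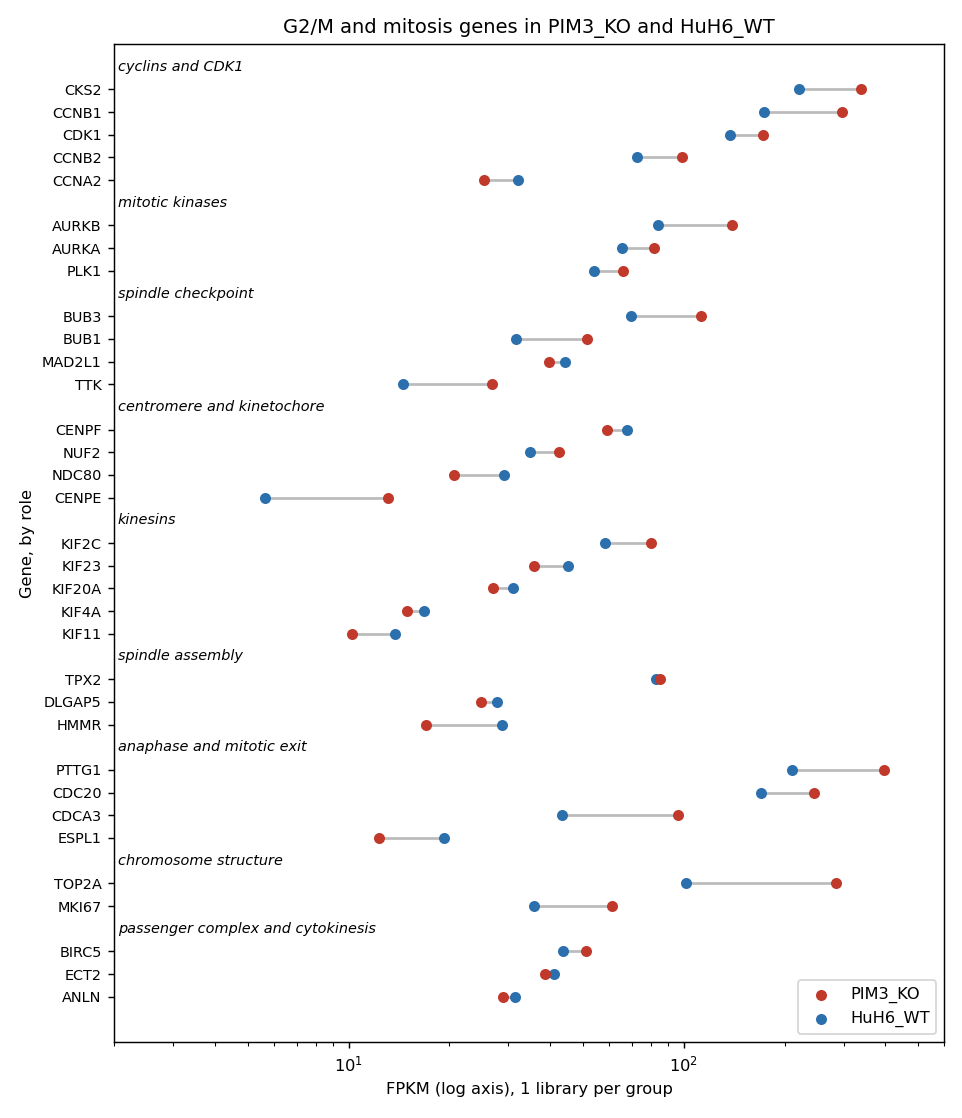
FPKM of the 33 genes in PIM3_KO (red) and HuH6_WT (blue) on a log axis, 1 point per library, grouped by role and ordered within a role by the PIM3_KO level. TOP2A and CENPE show wide gaps with PIM3_KO to the right, while 4 of the 5 kinesins and HMMR have PIM3_KO to the left.

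Genes of the outer kinetochore split. CENPE, a long kinesin that carries chromosomes to the spindle equator, measured 13.1 FPKM in PIM3_KO, against 5.64 FPKM in HuH6_WT, a 2.33-fold ratio with an interval of 2.18 to 2.49. CENPF, another late-cycle kinetochore protein, measured 59.0 FPKM in PIM3_KO and 67.9 FPKM in HuH6_WT. Of 4 measured genes of this role 2 were higher, or 1 on TPM, where 51.0% and 26.1% of all genes were. The NDC80 complex, which grips microtubule ends, has 4 subunits. Of these NDC80, NUF2 and SPC24 could be read, and on FPKM they did not move together. NDC80 measured 20.6 FPKM in PIM3_KO, against 29.2 FPKM in HuH6_WT, while its binding partner NUF2 measured 42.5 and 34.7 FPKM. The ratio of NUF2 to NDC80 was 2.07 in PIM3_KO and 1.19 in HuH6_WT. SPC24, a subunit outside the 39 genes, measured 41.2 FPKM in PIM3_KO and 17.7 FPKM in HuH6_WT. SPC25 was listed near 0 and no ratio was read from it: its rows held 0.118 and 0.669 FPKM in PIM3_KO, and 0.0308 and 0.401 FPKM in HuH6_WT. NDC80 lies on chromosome 18, where its 40 nearest measured coding genes had a median log2 ratio of -0.57, lower than its own -0.48. Less the median of 40 neighbours, NDC80 stood at 0.08 and NUF2 at 0.11. The locus joining CENPA, the centromeric histone, with SLC35F6 measured 84.0 FPKM in PIM3_KO and 49.4 FPKM in HuH6_WT.

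Of the 5 KIF genes, 4 were lower in PIM3_KO and 1 was higher, all by less than 1.5-fold, where 51.0% of all genes were positive. KIF11, the Eg5 motor that pushes spindle poles apart, measured 10.2 FPKM in PIM3_KO, against 13.8 FPKM in HuH6_WT. KIF23, the centralspindlin motor of cytokinesis, measured 35.7 and 45.0 FPKM, KIF20A, which brings Aurora B to the midzone, 27.0 and 30.9 FPKM, and the chromokinesin KIF4A 15.0 and 16.8 FPKM. KIF2C, which depolymerises microtubules at centromeres, was the exception at 79.6 FPKM in PIM3_KO, against 58.2 FPKM in HuH6_WT, and its log2 ratio of 0.45 was -0.01 on TPM. CENPE, also a kinesin and given above with the kinetochore, had a larger and positive ratio. The signs of KIF20A and KIF23 turned after subtraction of the median of 40 neighbouring genes, and that of KIF4A after subtraction of a length trend. KIF20A overlaps CDC23 and BRD8, and KIF4A overlaps PDZD11, each on the opposite strand.

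Spindle assembly factors lay near equality or below it. HMMR, the hyaluronan receptor RHAMM that also anchors spindle poles, measured 17.0 FPKM in PIM3_KO, against 28.7 FPKM in HuH6_WT, a ratio of 0.593 with an interval of 0.551 to 0.639. TPX2, the microtubule nucleator that activates Aurora A, measured 84.8 and 82.8 FPKM, and DLGAP5, which stabilises kinetochore fibres, 24.9 and 27.7 FPKM. The joined locus of NUSAP1 measured 52.9 FPKM in PIM3_KO and 45.5 FPKM in HuH6_WT, and that of PRC1, the midzone cross-linker, which also takes in VPS33B, 108 and 101 FPKM.

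Genes of anaphase and mitotic exit held some of the widest differences in both directions. CDCA3, a trigger of WEE1 destruction at mitotic entry, measured 96.1 FPKM in PIM3_KO, against 43.5 FPKM in HuH6_WT, a 2.21-fold ratio with an interval of 2.10 to 2.33. It overlaps GNB3 on the opposite strand, which measured 1.58 and 2.49 FPKM. PTTG1, the securin that keeps separase inactive, measured 396 FPKM in PIM3_KO, against 211 FPKM in HuH6_WT, and ESPL1, separase itself, 12.3 against 19.2 FPKM. The inhibitor and its protease thus lay on opposite sides, with PTTG1 at 32.1 times ESPL1 in PIM3_KO and 11.0 times in HuH6_WT. Subtraction of a length trend brought them closer, from log2 ratios of 0.91 and -0.60 to 0.40 and -0.36. The near-identical copies PTTG2 and PTTG3P were at 0.262 FPKM or less in each library. CDC20, the activator of the anaphase-promoting complex, measured 246 and 170 FPKM. UBE2C, the ubiquitin-conjugating enzyme of that complex, was listed at 0.818 FPKM in PIM3_KO and 0.148 FPKM in HuH6_WT, about 12 and 3 estimated reads, which is too few for a ratio to be read.

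The remaining passenger complex and cytokinesis genes, BIRC5, ANLN and ECT2, had ratios near equality. BIRC5, survivin, measured 51.1 FPKM in PIM3_KO, against 43.6 FPKM in HuH6_WT. ANLN, the cleavage furrow scaffold anillin, measured 28.8 and 31.3 FPKM, and ECT2, which activates RhoA at the furrow, 38.6 and 40.9 FPKM. None of the 3 reached 1.5-fold, and on TPM all were negative, where 26.1% of all genes were positive.

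The ratios also varied with transcript length. Across 9691 coding genes the log2 ratio was lower for longer transcripts (Pearson r = -0.36, Spearman rho = -0.38), and across the 33 genes the same coefficients were -0.16 and -0.23, given as descriptions of genes that share the same pair of libraries. All 8 genes under 2000 bp were positive (median 0.57), where 74.5% of 2345 coding genes of such length were (median 0.35). Of 14 genes from 2000 to 4000 bp 8 were positive (median 0.13, against -0.01 for coding genes). Of 11 genes of 4000 bp or more 4 were (median -0.12, against -0.24), namely TOP2A, MKI67, CENPE and BUB3. After subtraction of the length trend TOP2A stood at 1.71, CENPE at 1.34 and MKI67 at 1.01, whereas PTTG1 stood at 0.40 and CKS2 at -0.12. With the trend removed 24 of 33 were positive with a median of 0.16, beside 62 of 112 further mitosis genes and regulators and 9 of 24 G1/S genes. Against the median of the 40 nearest coding genes, a measure chosen after seeing the data, 26 of 33 were higher. Of the 112 further genes 65 were, and of the 24 G1/S genes 11. Shares among all genes were not computed for these 2 corrections.

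**Figure D4:**
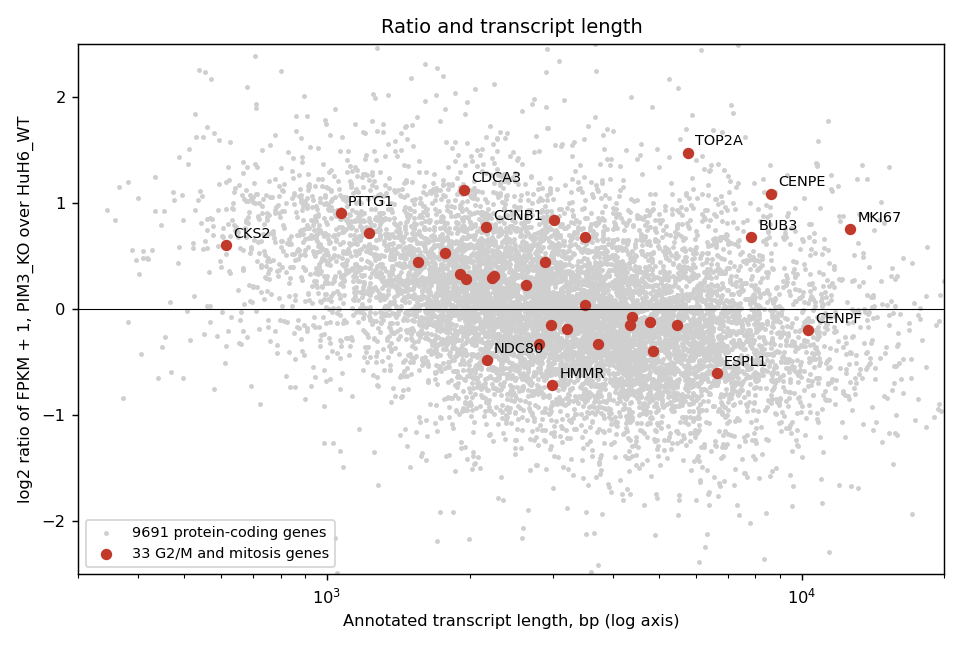
Log2 ratio of FPKM + 1 (PIM3_KO over HuH6_WT) against annotated transcript length on a log axis, for 9691 protein-coding genes (grey; 38 lie beyond the plotted range) and the 33 G2/M and mitosis genes (red). TOP2A, CENPE, MKI67 and BUB3 lie in the upper part of the cloud of long transcripts, and ESPL1 lies in its lower part, while HMMR and NDC80 lie low among transcripts of 2000 to 4000 bp.

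Of 123 other genes of the pathway, read from further lists, 112 were measured by the same filter, and 65 of them (58.0%) had positive ratios, against 51.0% of all genes. On TPM 19 did, against a share of 26.1% among all genes. Their median was 0.06, or -0.37 on TPM, where that of all genes was 0.01, or -0.40 on TPM. At least 2-fold higher were 3, where the share among all genes was 6.89%: the kinetochore subunit SPC24, the anaphase-promoting complex subunit ANAPC15 (175 FPKM in PIM3_KO and 64.1 FPKM in HuH6_WT) and the spindle protein TACC3 (144 and 70.6 FPKM). At least 2-fold lower were 4, where it was 4.59%: the centriole kinase PLK4 (7.76 FPKM in PIM3_KO and 16.9 FPKM in HuH6_WT), the cohesin subunits SMC1A (9.11 and 23.6 FPKM) and STAG1 (3.62 and 9.25 FPKM), and RB1. STAG1 is named because its value was seen. At 1.5-fold, 13 of the 112 (11.6%) were higher, against 18.2% of all genes, and 13 (11.6%) lower, against 14.9%.

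The counts by role below stand beside shares among all genes of 51.0% positive on FPKM and 26.1% on TPM, and differences from these were not tested. By role, 18 of 28 further centromere and kinetochore genes were positive, or 9 on TPM, with a low end at NSL1 (22.6 FPKM in PIM3_KO and 28.9 FPKM in HuH6_WT). Among condensins and cohesin 11 of 19 were, or 3 on TPM, led by the condensin subunit SMC4 at 196 and 102 FPKM. Of further kinesins, spindle and cytokinesis genes 11 of 16 were positive, or 4 on TPM, the lowest being the microtubule polymerase CKAP5 at 26.2 FPKM in PIM3_KO and 41.5 FPKM in HuH6_WT. Of the anaphase-promoting complex and its regulators 8 of 14 were, or 3 on TPM, the lowest being ANAPC4 at 5.92 and 10.3 FPKM. Entry switches had 8 of 13, or 0 on TPM, with the kinase NEK2 highest at 85.6 FPKM in PIM3_KO and 62.0 FPKM in HuH6_WT. The small set of passenger and shugoshin genes had 2 of 4, or 0 on TPM, from SGO2 (9.19 and 7.08 FPKM) to INCENP (16.6 and 18.1 FPKM).

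Of 18 measured factors that act on G2/M promoters, 7 had positive ratios, where 51.0% of all genes did, and 0 had on TPM, where 26.1% of all genes did, with a median of -0.24, or -0.62 on TPM. FOXM1, the forkhead activator of late-cycle genes, measured 104 FPKM in PIM3_KO and 92.4 FPKM in HuH6_WT, and MYBL2, which encodes B-MYB, 121 and 97.4 FPKM. E2F1, an activator of G1/S genes, was the highest by ratio at 24.3 and 19.1 FPKM. RB1, the retinoblastoma protein, was the lowest at 5.28 FPKM in PIM3_KO, against 11.8 FPKM in HuH6_WT. Its relatives RBL1 (p107) and RBL2 (p130), named after their values were seen, measured 2.58 against 4.39 FPKM and 4.41 against 8.08 FPKM. All 3 members of this family of repressors were lower in PIM3_KO on both scales, and all have annotated transcripts of over 4000 bp, where ratios tended to be low.

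**Figure D5:**
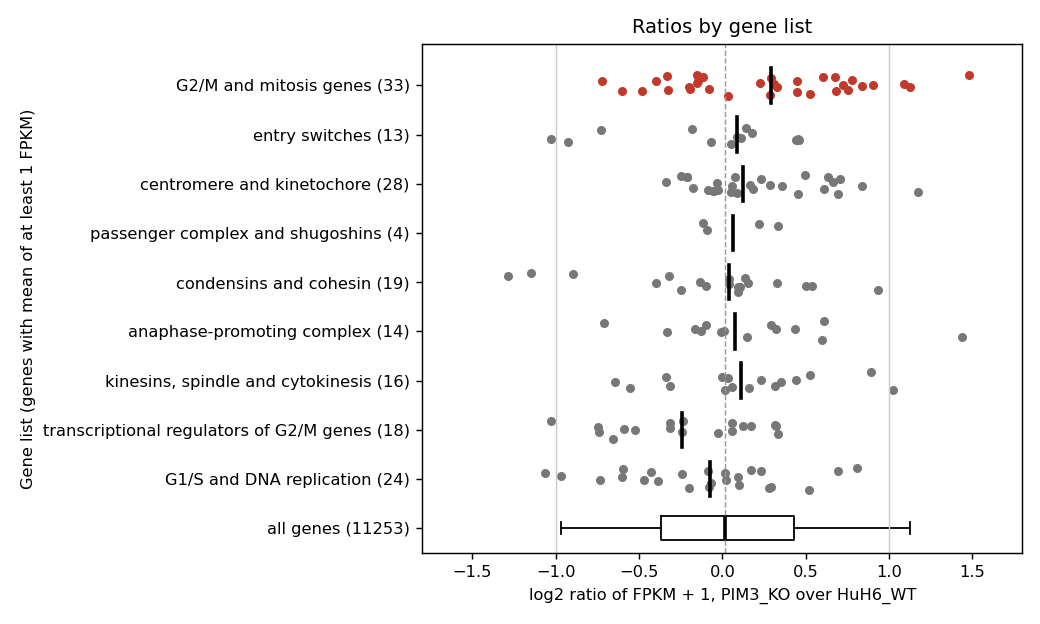
Log2 ratios of FPKM + 1 (PIM3_KO over HuH6_WT) of the 33 G2/M and mitosis genes (red), 7 further lists of mitosis genes and regulators and the G1/S list (grey; number of genes in brackets). Black bars are medians; the box for all 11253 genes spans the quartiles with whiskers at the 5th and 95th percentiles, and light lines mark 2-fold. The red points have the rightmost median (0.29), and the regulators the leftmost (-0.24). The lists were chosen with earlier results of these data known.

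The G1/S and DNA replication genes, the nearest other part of the cell cycle, had a median below that of all genes. Of 24 measured, 11 were positive, or 3 on TPM, with a median of -0.07, or -0.53 on TPM. Among all genes 51.0% were positive, or 26.1% on TPM. They ran from POLE2, a polymerase epsilon subunit, at 20.5 FPKM in PIM3_KO and 11.3 FPKM in HuH6_WT, to the helicase subunit MCM2 at 39.0 and 82.6 FPKM. At least 1.5-fold higher were 2 of 24 (8.33%) and lower 5 (20.8%), beside 33.3% and 6.06% of the G2/M and mitosis genes and 18.2% and 14.9% of all genes. Whether the lists differ beyond chance was not tested.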

How the data were processed

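Poly(A) RNA of 2 HuH6 libraries was sequenced as single-end 75 bp reads from a directional kit, per the labels' protocols. Tools named in the submitters' processing notes are Cufflinks 2.2.1, STAR 2.7.3a and bcl2fastq 2.18.0.12, on GRCh38. Annotation release, filters and the handling of strand were not given in the sources used here. Per the file headers, the values the authors deposited are FPKM, in 1 column per library.

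Symbols with 1 row of their own, and in no joined locus, were used (53139 of 62571 rows). The statistic was log2 of FPKM + 1 in PIM3_KO over HuH6_WT, for genes whose mean over both libraries reached 1 FPKM, called at 2-fold and 1.5-fold. Lengths and positions came from GENCODE release 29 (GRCh38), with 1 transcript per gene (the longest principal one, otherwise the longest), which need not be the one expressed. For single-exon genes of 600 to 5000 bp with 1 transcript, FPKM times kilobases (length less 200 bp) came in steps, and 96.5% (PIM3_KO) and 96.7% (HuH6_WT) of values of up to 20 reads lay within 0.05 of a whole number. Read estimates from these steps gave exact 95% binomial intervals, which cover counting error only. No count test was run.

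Alternatives were pseudocounts of 0.1 and 5, no filter, a mean of at least 5 FPKM, TPM, median centring and subtraction of a lowess length trend (fraction 0.3). Subtraction of the median of 40 neighbouring genes and the counting of joined loci were chosen after seeing the data. Genes and lists were chosen with earlier results of these data known. All listed genes are named, and from every further list those with the highest and lowest ratio, with FOXM1 and MYBL2. The code was tested on simulated data. Python 3.11.15, scipy 1.17.1 and statsmodels 0.14.6 were used.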

Additional observations from a re-analysis of the deposited data

How the results depend on the processing

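No paired analysis was possible because each group had 1 library, and for the same reason no replicate could be left out. Rescaling to TPM changed most values. On TPM the G2/M and mitosis genes had 1 gene at least 2-fold higher and 2 lower, 3 at least 1.5-fold higher and 11 lower, and 12 positive, with a median of -0.17. The 112 further mitosis genes and regulators had 0 at least 2-fold higher and 12 lower, 2 at least 1.5-fold higher and 33 lower, and 19 positive, with a median of -0.37. The 24 G1/S genes had 4 at least 2-fold lower, 0 at least 1.5-fold higher and 10 lower, and 3 positive, with a median of -0.53. Of all genes on TPM, 2.87% were at least 2-fold higher and 14.4% lower. At 1.5-fold, 7.25% were higher and 36.5% lower, and 26.1% were positive, with a median of -0.40. TPM multiplies each library by a constant, and the pseudocount makes the shift smaller for low genes. With a pseudocount of 5, 1 of the G2/M and mitosis genes was at least 1.5-fold lower, 1 of the further genes was at least 2-fold lower and 8 at least 1.5-fold higher, and 0 of the G1/S genes were at least 2-fold lower and 2 at least 1.5-fold lower. After length correction 1 of the G2/M and mitosis genes was at least 1.5-fold lower and their median was 0.16, 1 of the further genes was at least 2-fold lower, and 0 of the G1/S genes were at least 2-fold lower and 1 at least 1.5-fold higher. Less the median of 40 neighbours, 0 of the G2/M and mitosis genes were at least 1.5-fold lower. Shares among all genes were not computed for the pseudocount, length and neighbour settings. Length correction changed the sign of 6 genes (CKS2, MAD2L1, CENPF, KIF4A, ANLN and ECT2), and the neighbour correction that of 8 (CCNA2, MAD2L1, NDC80, KIF20A, KIF23, TPX2, ANLN and ECT2). TOP2A, CDCA3 and CENPE kept a positive ratio under each alternative run, but CENPE was less than 2-fold higher with a pseudocount of 5 (log2 0.77) and on TPM (0.68), and CDCA3 was on TPM (0.67) and after length correction (0.97). The cause of these shifts was not tested. Among the 39 genes, SPC25 and UBE2C were listed near 0 and no ratio was read from them; the cause was not tested.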

Other observations

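Some mitosis genes could not be measured from their rows. KIFC1, the minus-end spindle motor, had 4 rows, each listed at 0, and KIF15, SKA1 and E2F2 had 2 rows each, also listed at 0. UBE2C and SPC25 were near 0 although their partners CDC20 and NUF2 were abundant. Such rows say nothing of expression. The joined locus that holds SPAG5, the spindle protein astrin, measured 176 FPKM in PIM3_KO and 81.1 FPKM in HuH6_WT, a log2 ratio of 1.11 for the locus as a whole. The locus of KIF2A with IPO11 and LRRC70 went the other way, at 29.5 FPKM in PIM3_KO and 40.1 FPKM in HuH6_WT.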
